A study of Mus musculus with 3 samples.

Results

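Ebf1-positive mesenchyme of mouse embryos, with the working name cranial Ebf1 mesenchyme, was described in 1104 cells, which are 9.56% of the 11547 cells of stages E8.5 and E9.5 and come from a series of 14777 cells. The cells were chosen by their own counts of unique molecular identifiers (UMIs, one per captured RNA molecule). A cell entered with at least 2 UMIs of Ebf1 and at least 1 UMI of Foxl2 and Ebf2 together, no UMI of Pax1 or Foxf1, and under 50 UMIs per 10000 of Myl7, Tnnt2, Ttn and Myl4 together. The markers did not bear out the word cranial for every cell. The 713 members with Ebf2 and no Foxl2 held 87.1 CPM of Meox1 and 67.5 CPM of Tcf15, both genes of somites. CPM is the count scaled to a library of 1e+06 UMIs of the summed cells. Other mesenchyme, defined below, held more of both, at 99.6 CPM of Meox1 and 101 CPM of Tcf15. The embryos were of a C57BL/6 background and all carried Mesp1-Cre, which recombines floxed alleles in early mesoderm, and the Ai9 reporter, which turns recombined cells red. Controls had 1 floxed Wls allele (Wls fl/+) and mutants had both alleles floxed (Wls fl/fl), at E8.5 and at E9.5. Reporter-positive cells were sorted by flow cytometry after each sample had been tagged with a MULTI-seq barcode, so ectoderm, endoderm, neural crest and other unrecombined cells were meant to be left out, and Wls stays intact in them. The pools were sequenced in 3 runs. The replicate used throughout is the barcode sample, defined by the run, barcode, stage and genotype given for each cell. Whether 1 barcode holds 1 embryo is not stated, so p-values measure the spread between barcode samples, which may be technical.

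Ebf1, Ebf2 and Ebf3 encode early B-cell factors, DNA-binding proteins that take part in the differentiation of mesenchyme, fat, bone and blood lineages. Head mesoderm forms without the regular segmentation of the trunk and gives rise, with neural crest, to skull, eye muscles, connective tissue and vessels of the head. Foxl2 is a forkhead factor known for its part in the ovary and in the tissue around the eye, including the eyelid. Wls is the membrane protein that carries Wnt ligands to the cell surface, and a cell without it secretes little Wnt but can still receive Wnt from its neighbours.

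Controls gave 936 of these cells among 8275, and mutants 168 among 3272. They came from 14 of the 15 barcode samples of these stages, and 10 samples held at least 10 of them and entered the tests of genes. The members had a median of 21949.5 UMIs (1969 to 76493) and of 5321.5 genes. At E9.5 the median depth of a member was 21700 UMIs in controls and 16583 in mutants. In E9.5 run 1, which holds 2 controls (Bar22 and Bar23) and 3 mutants (Bar19, Bar20 and Bar21) with at least 10 members, cells with a UMI of a Y-linked gene made up 17.1% and 16.4% of the controls and 88.3%, 19.5% and 85.8% of the mutants. Male share therefore differs between most of the samples that carry the comparison of genotypes. Runs 2 and 3 held no mutant with at least 10 members at E9.5, so the genotype effects fitted over samples with at least 10 members rest on run 1. Between runs, 23 cell barcode sequences were shared, in 46 cells of which 1 was a member.

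The genes of the rule were spread unevenly over the cells. Ebf2 was found in 938 members (85%) and Foxl2 in 391 (35.4%). Both were found in 225 cells, Foxl2 alone in 166 and Ebf2 alone in 713. These values chose the members and are given as a description with no test. Cells just inside the rule on Ebf1, with exactly 2 UMIs, numbered 152 and had 79.8 CPM of Ebf2. The 209 cells just outside, with 1 UMI of Ebf1 and otherwise in the rule, had 61.3 CPM of Ebf2. With a sum of exactly 1 UMI over Foxl2 and Ebf2 there were 390 members, at 310 CPM of Ebf1, and 824 cells with a sum of 0 were otherwise in the rule, at 252 CPM of Ebf1. The heart-muscle limit left out only 1 cell, and the highest member held 17.3 UMIs per 10000 of the 4 heart-muscle genes against a median of 0.394. The thresholds on Ebf1 and on Foxl2 and Ebf2 thus have many cells on both sides, and that on heart muscle does not.

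Markers outside the rule were set against 5988 other cells of the same stages, called other mesenchyme here by exclusion alone: they are non-members with heart-muscle genes under the same limit, under 100 globin UMIs per 10000, at most 1 UMI of Pecam1 and Cdh5, and none of Epcam, Cdh1 or Sox2. This is a description, since the members were picked from these counts. Crym, which encodes a thyroid-hormone-binding crystallin, was found in 36.8% of members, in 5.58% of other mesenchyme and in 0.670% of globin-rich cells, a class that should lack it. Parm1, an androgen-responsive membrane protein gene, was found in 63.8%, 24.5% and 2.68%. Ebf3, the third family member found here, was found in 50.5%, 22.0% and 2.94%. Median depths were 21949.5, 18515.5 and 25462 UMIs, so the globin-rich cells were the deepest and had the lowest shares. All 3 markers were far above the level in blood.

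Transcription factors of the head and pharynx were among the leading genes. Tbx1, a T-box factor of pharyngeal mesoderm, averaged 139 CPM in members (79.0 to 200 over 10 samples) and 31.6 CPM in other mesenchyme. Members exceeded other mesenchyme in 10 of 10 samples. The same held for Eya1, a transcription cofactor gene, at 52.5 against 19.7 CPM, and for Zic2, a zinc-finger factor, at 51.6 against 15.9. Six2 was higher in 9 of 10 samples, at 32.5 against 9.54 CPM. Secreted and matrix proteins were among them too: Fst, which binds and blocks activin, had 337 against 102 CPM, the cartilage collagen gene Col2a1 had 168 against 54.1, and Igf1 had 38.7 against 11, each higher in 10 of 10 samples. Twist1, a general mesenchyme factor, was not among them. It averaged 448 CPM in members and 491 in other mesenchyme and was higher in members in 2 of 10 samples.

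**Figure D1:**
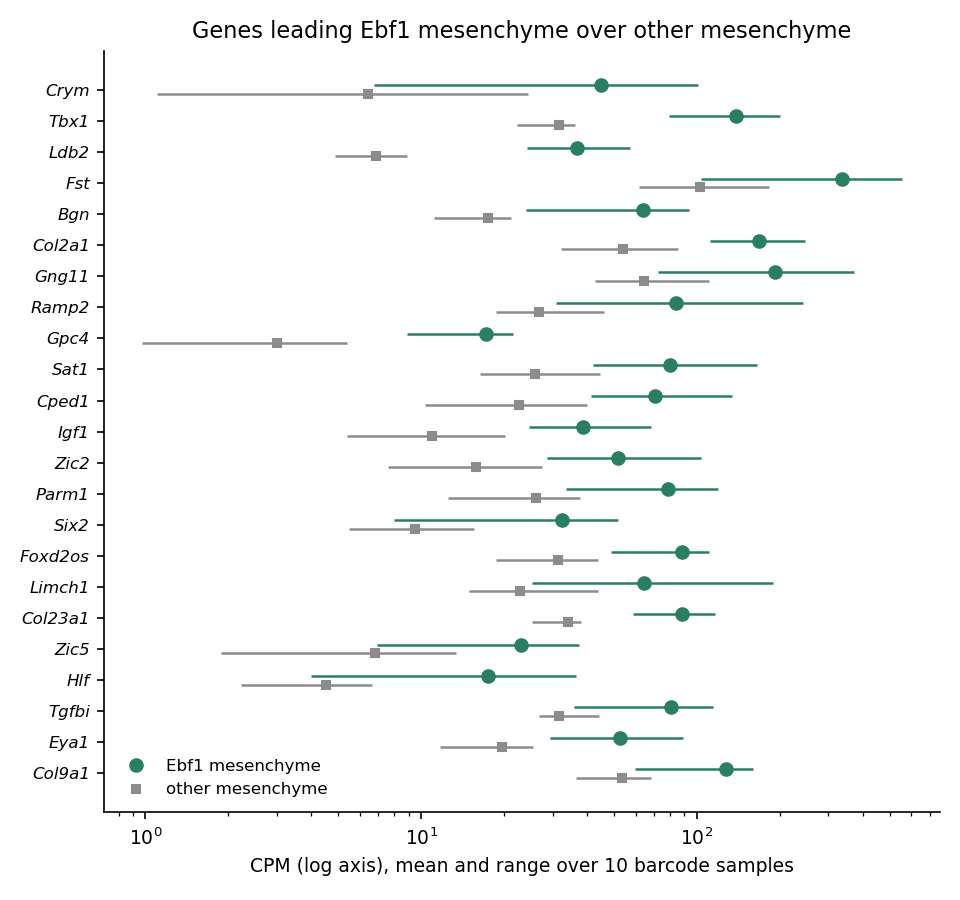
CPM of leading genes (log axis) in members and in other mesenchyme, as the mean (symbol) and range (line) over 10 barcode samples. Crym, Tbx1 and Fst lie above other mesenchyme in 10 of 10 samples.

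Several genes of splanchnic and heart mesoderm were low. Wnt2, a ligand gene of splanchnic mesoderm and the venous pole of the heart, averaged 2.18 CPM in members and 74.6 in other mesenchyme. Hand2, a factor of heart and limb mesoderm, averaged 3.52 against 46.4 CPM, and Gata6 10.3 against 120. Aldh1a2, which makes retinoic acid, averaged 8.90 against 76.6 CPM. All 4 genes were lower in members in 10 of 10 samples. Summed markers of the second heart field overlapped, at 146 to 336 CPM in members and 159 to 206 CPM in other mesenchyme of E9.5 controls, as did those of limb and trunk lateral plate, at 118 to 164 and 144 to 257 CPM. Foxf1 and Pax1 were at 0 by the rule, while other mesenchyme had no limit on them. Low splanchnic genes in members can therefore follow from the choice of cells, whose part was not tested. Summed over 27 Hox genes, members held 58.9 to 88.8 CPM in E9.5 controls and other mesenchyme 88.9 to 566 CPM. Markers of neural crest summed to 6.87 to 112 CPM in E9.5 control samples and 6.73 to 33.5 CPM in mutants. The list has 10 genes.

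The members were not uniform. Among cells without endothelial markers, those with Foxl2 were set against those with Ebf2 alone in the 6 samples with 10 or more of each. Msx1, a homeobox factor of craniofacial mesenchyme, averaged 108 CPM with Foxl2 and 15.3 CPM in cells with Ebf2 alone. Zic1 averaged 98.6 against 15.4 and smooth muscle actin Acta2 166 against 33.9. These 3 genes were higher with Foxl2 in 6 of 6 samples.

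In the other direction, Meox1, a somite homeobox factor, averaged 68.4 CPM with Ebf2 alone and 5.58 CPM with Foxl2, and Tcf15, a basic helix-loop-helix factor of somites, averaged 53.8 against 9.32. Fst averaged 441 against 110 CPM, Arg1 71.3 against 8.90 and Meis2 313 against 90.9. All 5 were higher with Ebf2 alone in 6 of 6 samples. These genes were chosen from the largest differences between the kinds of cell, as a description. Pax9, another gene of the somite list, was at 14.6 CPM over all members with Ebf2 alone and at 15.9 and 16.1 CPM in those with Foxl2 with and without Ebf2. The sum of 9 somite markers in members was 43.9 to 123 CPM in E9.5 controls, 68.5 to 323 in mutants and 214 in the larger E8.5 control. In other mesenchyme it was 244 to 346, 206 to 230 and 349 CPM. The list includes Pax1, which is 0 in members by the rule. Cells with Foxl2 made up 27.5% (Bar21) to 43.8% (Bar19) of the members without endothelial markers in the 6 samples.

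**Figure D2:**
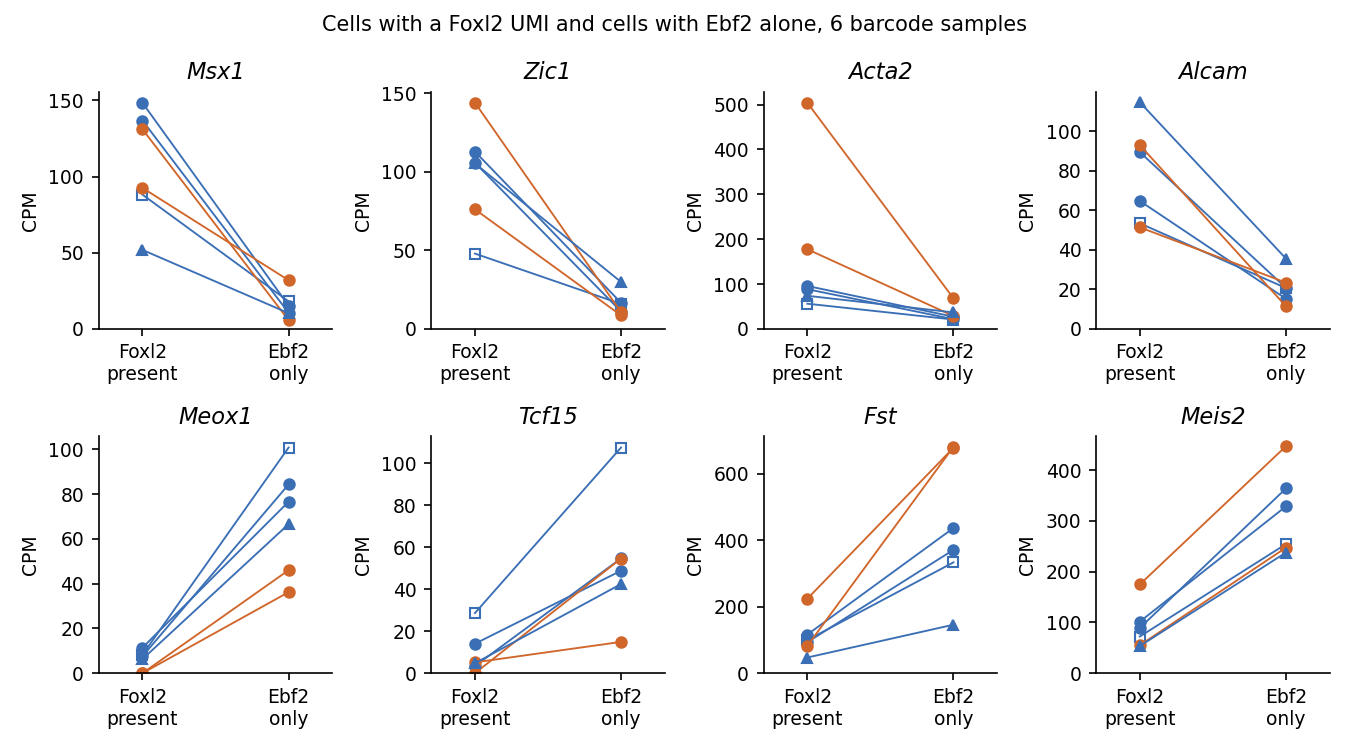
CPM of genes in members with Foxl2 and in members with Ebf2 alone, each line 1 of 6 barcode samples with 10 or more of both (blue control, orange mutant, circles run 1, triangles run 3, open squares the E8.5 control of run 2). Msx1 and Zic1 are higher with Foxl2 and Meox1 and Tcf15 with Ebf2 alone in all 6 samples.

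Markers of other cell types were present in some members. At least 2 UMIs of the endothelial genes Pecam1 and Cdh5 together were found in 158 members (14.3%). Their share ran from 0.80% in Bar9, 2.41% in Bar3, 4.65% in Bar4, 4.76% in Bar21 and 7.89% in Bar1 to 11.8% in Bar7, 20.7% in Bar20, 23.8% in Bar19, 24.1% in Bar23 and 26.0% in Bar22. It was high in both controls and in 2 of the 3 mutants of run 1. These 158 cells held 132 CPM of Cldn5 and 46.8 CPM of Cdh5, both genes of endothelial junctions. They held 298 CPM of Ebf1, against 343 CPM in the other members and 38.0 CPM in 1431 non-members with the same endothelial count. Cdh5 and Ebf1 were used to choose the cells, so those levels were set by the choice. The median depth of the 158 cells was 25882 UMIs against 21317.5 in the other members. Whether they are doublets was not tested. Globin genes of 50 or more UMIs per 10000 were found in 135 members (12.2%), 100 or more in 14, and 1000 or more in 5. Sox2 was found in 46 members and Epcam or Cdh1 in 33.

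Wls itself was checked first in each genotype. In E9.5 members it stood at 48.5 CPM in Bar22, 52.6 in Bar23, 60.8 in Bar4, 39.9 in Bar7 and 57.9 in Bar9 among controls. It stood at 0 in Bar19, 1.68 in Bar20, 0 in Bar21, 0 in Bar8 and 10.6 in Bar10 among mutants. The mutant values rest on 2 UMIs in all, against 779 in controls, so mutants held 1.64% of the control level with an exact 95% interval of 0.198% to 5.94%. At E8.5 the 3 UMIs of the mutant against 333 in controls gave 5.93% (1.22% to 17.5%). Intervals cover counting error only. The 2 genotypes did not overlap in these samples. In other mesenchyme of the run 1 mutants Wls was 6.70, 9.36 and 8.26 CPM against 50.5 and 50.2 CPM in the controls.

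The members were a smaller share of sorted cells in mutants at E9.5. In controls the share was 13.4% in Bar22, 14.5% in Bar23, 7.07% in Bar4, 10.4% in Bar7 and 9.08% in Bar9. In mutants it was 4.86% in Bar19, 4.23% in Bar20, 5.75% in Bar21, 5.36% in Bar8 and 2.86% in Bar10, and Bar5 held none of 57 cells, which by the limit of 3 counts allows a share of up to 5.26%. Each mutant lies below each control. The part of male share in this difference was not tested. The mean was 3.84 ± 2.14% (SD, n = 6) in mutants and 10.9 ± 3.07% (SD, n = 5) in controls, a difference of -7.05 percentage points. An exact two-sided permutation test within runs gave p = 0.00833, the smallest that its 120 relabellings allow. Samples of fewer than 20 cells were left out.

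Depth bears on this share, since the rule needs UMIs. After each cell was thinned to 10000 UMIs the means were 2.72% and 7.33% (exact permutation p = 0.00833), and the groups then overlapped, with Bar4 at 3.14% and mutants reaching 4.10%. After thinning to 5000 UMIs the difference was -1.37 points and missed the threshold (exact permutation p = 0.0667). Of the cells of E9.5 controls and mutants, 694 and 378 were left out at 10000 UMIs, and 122 and 33 at 5000. Among members and other mesenchyme alone the difference was -13.7 points, and without endothelial-marker members it was -5.81 points, both with exact permutation p = 0.00833. Other mesenchyme made up 53.0% of cells in mutants and 44.4% in controls (exact permutation p = 0.117). Cells of the rule with Pax1 were 0.716% in mutants and 1.79% in controls (exact permutation p = 0.05), and those with Foxf1 0.257% and 1.17% (exact permutation p = 0.0417). At E8.5 the share was 7.80% in the mutant Bar1 (95% exact binomial interval 5.58% to 10.6%) and 9.93% in the control Bar3 (8.79% to 11.2%), with no test. Fewer cells of this kind and a fall of Ebf1, Ebf2 or Foxl2 below the rule cannot be told apart from these shares.

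**Figure D3:**
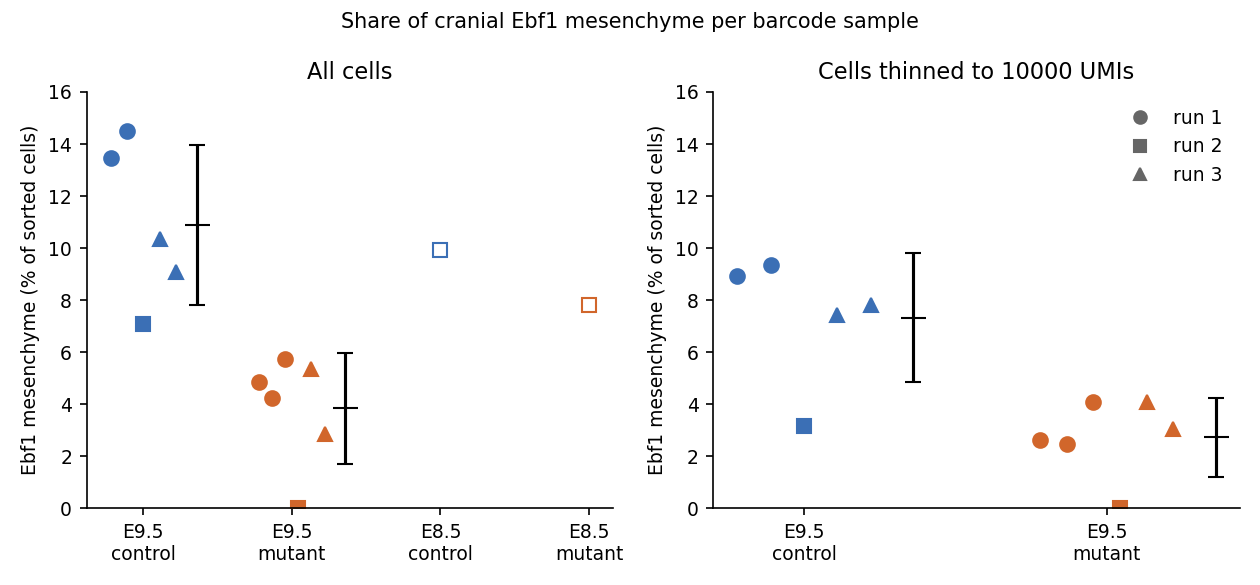
Members as a percentage of sorted cells in each barcode sample, by stage and genotype, with the run as the symbol, for all cells and for cells thinned to 10000 UMIs, with the mean and SD of the E9.5 groups. In all cells the E9.5 mutants, from 0 to 5.75%, lie below the E9.5 controls, from 7.07% to 14.5%.

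Genes of the response to low oxygen and of glycolysis were higher in the mutant members at E9.5, and genes of sterol synthesis were lower. Summed counts of 3 mutants and 5 controls were fitted with edgeR's quasi-likelihood test, with run as a term and Benjamini-Hochberg adjustment over 8761 genes. Of these, 994 (11.3%) passed at 0.05, with 564 higher (6.44%) and 430 lower (4.91%) in mutants. The count fell to 112 without Bar22, to 134 without Bar23 and to 145 once the share of male cells per sample was a covariate. It was 28 in run 3 alone, where 2 mutants with 8 and 9 members met 2 controls.

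Of 22 low-oxygen genes tested, 19 rose and none fell, with a median log2 difference of 2.15 against 0.02 over all genes. This list, like the others, was chosen with earlier results of these data known, so its count is a description. Ndufa4l2, which encodes a mitochondrial protein that lowers oxygen use, was at 10.7 and 12.7 CPM in the run 1 controls Bar22 and Bar23 and at 201, 148 and 244 CPM in the mutants Bar19, Bar20 and Bar21. The controls of the other runs held 34.3 CPM in Bar4, 15.9 in Bar7 and 5.93 in Bar9. No mutant overlapped a control. Bar20, whose male share was close to that of the run 1 controls, was the lowest of these mutants. The log2 difference was 4.12 ± 0.21 (SE), with an adjusted p of 2.77e-08 by edgeR.

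Bnip3, a mitophagy receptor gene, stood at 15 and 15.3 CPM in the controls of run 1 and at 123, 106 and 136 CPM in its mutants, with 19.8 to 23.9 CPM in the other controls. Its log2 difference was 3.03 ± 0.17 (SE; edgeR adjusted p = 2.77e-08). Ddit4, an inhibitor of growth signalling through mTOR, stood at 21.4 and 20.5 CPM against 239, 185 and 292 CPM, and rose by 3.54 on the log2 scale. Egln1, an oxygen-sensing prolyl hydroxylase that marks Hif1a for breakdown, stood at 79.0 and 69.8 CPM against 297, 306 and 352 CPM, and rose by 2.13. Mutants and controls were apart for these 3 genes in every fitted sample. Hif1a itself, the oxygen-regulated factor, did not pass, at 96.0 and 90.4 CPM against 63.5, 90.8 and 60.1 CPM.

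Bhlhe40 and Ier3 had the largest rises among named genes, which passed and averaged 10 CPM or more in at least 1 genotype. Bhlhe40, a repressor of the clock and stress response, was at 0.960 and 0.666 CPM in the run 1 controls and at 21.2, 18.5 and 39.1 CPM in the mutants, a log2 difference of 4.95. Ier3, an early response gene of cell survival, was at 2.40 and 4.16 against 65.8, 79.0 and 95 CPM, a log2 difference of 4.61. Genes this low in controls can enter the test and this ranking through their level in mutants. Stc2 (3.91), Adm (3.56), Vldlr (3.10), Egln3 (3.07), Ankrd37 (3.05) and the glycolytic Pfkp (2.91) were the others of the 12 largest rises, with Uty. Uty lies on the Y chromosome, followed the male share of the samples (38.8 and 39.1 CPM in Bar19 and Bar21, 3.36 CPM in Bar20) and had a log2 difference of 0.44 with that share as covariate.

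With male share as covariate 14 of 22 genes rose and none fell, without Bar22 18 of 22 and without Bar23 18 of 22. In run 3 alone, whose mutants Bar8 and Bar10 entered no call above, 7 of 10 tested rose, with a median of 1.60. There Ndufa4l2 stood at 66.7 CPM in Bar8 and 287 CPM in Bar10 against 15.9 CPM in Bar7 and 5.93 CPM in Bar9. Without endothelial-marker members 18 of 21 rose. With no filter on low counts 19 of 26 rose and none fell.

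The promoters of 4 of the genes that rose are shown because the low-oxygen factors are known to bind a short core sequence. The letters ACGTG and GCGTG were searched on both strands of the 250 bases before each gene start in RefSeq (GRCm38.p6), counting overlapping matches, and matches are in capitals. Each sequence runs 5′ to 3′ on the gene's strand. Ier3 lies at chr17:35821463-35821712 (plus strand, 1 match), Ddit4 at chr10:59951771-59952020 (minus, 2 matches), Ankrd37 at chr8:45999851-46000100 (minus, 4 matches) and Bnip3 at chr7:138909507-138909756 (minus, 5 matches).
Ier3: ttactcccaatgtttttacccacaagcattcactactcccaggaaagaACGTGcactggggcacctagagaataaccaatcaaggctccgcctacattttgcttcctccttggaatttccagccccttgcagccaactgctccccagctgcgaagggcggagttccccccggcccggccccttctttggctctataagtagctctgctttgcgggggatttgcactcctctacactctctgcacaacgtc
Ddit4: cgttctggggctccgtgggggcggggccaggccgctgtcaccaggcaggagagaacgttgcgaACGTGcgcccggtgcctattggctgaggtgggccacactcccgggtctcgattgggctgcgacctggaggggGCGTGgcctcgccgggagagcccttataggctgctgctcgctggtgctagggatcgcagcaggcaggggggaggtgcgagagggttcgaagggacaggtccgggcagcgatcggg
Ankrd37: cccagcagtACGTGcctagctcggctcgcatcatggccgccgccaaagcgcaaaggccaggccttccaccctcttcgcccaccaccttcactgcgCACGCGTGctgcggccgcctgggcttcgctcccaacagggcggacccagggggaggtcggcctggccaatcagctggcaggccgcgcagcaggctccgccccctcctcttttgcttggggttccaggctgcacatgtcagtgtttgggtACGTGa
Bnip3: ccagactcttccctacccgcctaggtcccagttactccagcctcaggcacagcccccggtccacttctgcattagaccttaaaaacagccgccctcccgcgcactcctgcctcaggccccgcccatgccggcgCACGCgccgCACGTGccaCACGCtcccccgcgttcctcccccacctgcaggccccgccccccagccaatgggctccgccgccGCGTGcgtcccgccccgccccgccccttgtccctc
Of the 19 low-oxygen genes that rose, 16 had a promoter in the table and 13 of them held a match (81.2%). For the 12 genes with the largest rises it was 9 of 10. A match was held by 10431 of 27025 promoters (38.6%) in all and by 4155 of 6882 promoters of genes tested (60.4%). A match describes these letters only.

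Glycolysis moved with the low-oxygen genes. Of 17 tested genes of glucose uptake and glycolysis, 16 rose and none fell, with a median log2 difference of 1.21. Hexokinase Hk2, the first enzyme of the pathway, rose by 1.65, triose-phosphate isomerase Tpi1 by 1.17 and phosphoglycerate kinase Pgk1 by 1.29 on the log2 scale. Pgk1 was at 1139 and 1234 CPM in the run 1 controls and at 3021, 2655 and 2874 CPM in the mutants, with 767 to 1757 CPM in the other controls. Pdk1, which holds pyruvate back from mitochondria, was at 41.3 and 32.6 CPM against 161, 133 and 131 CPM (log2 difference 1.97). Pfkm, a muscle-type phosphofructokinase gene, did not pass, with an edgeR adjusted p of 0.0585.

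**Figure D4:**
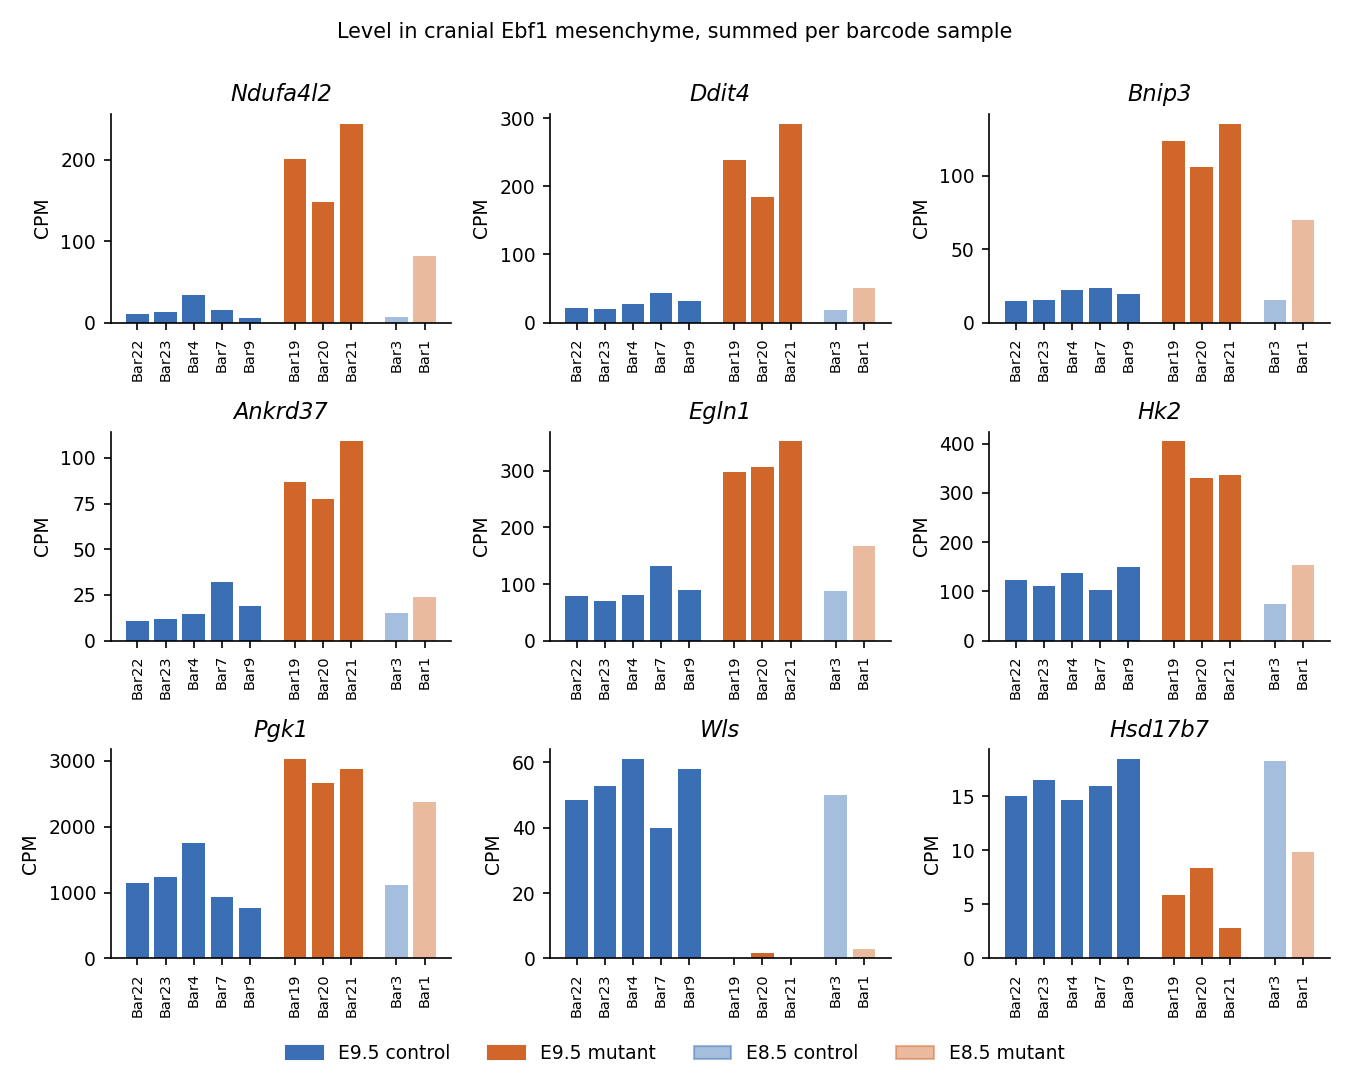
CPM (bars) of 5 low-oxygen genes, 2 of glycolysis, Wls and the sterol gene Hsd17b7 in members of each barcode sample with at least 10, coloured by genotype and paler at E8.5. Ndufa4l2 is at 148 to 244 CPM in the mutants of run 1 and at 34.3 CPM or less in the controls.

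Sterol genes went the other way. The list of 23 genes of sterol synthesis and uptake was chosen after values had been seen, so its count is a description. Of 21 tested, 12 fell and none rose, with a median log2 difference of -0.93. Msmo1, an enzyme of the late sterol pathway, was at 72.8 and 61.0 CPM in the run 1 controls and at 37.6, 20.2 and 22.4 CPM in the mutants (-1.25 on the log2 scale). Idi1, of the isoprenoid step, was at 51.5 and 46.6 against 17.6, 26.9 and 22.4 CPM (-1.14). Run 1 mutants lay below run 1 controls for both genes. No sterol gene passed with male share as covariate or without Bar22, and 1 without Bar23, with medians of -0.88, -0.80 and -0.94.

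Most genes of the remaining lists did not pass. Of 37 head mesoderm and mesenchyme transcription factors, 5 rose and none fell, with a median of 0.15. The share that passed, 13.5%, is near the 11.3% of all genes. With male share as a covariate 3 rose and 2 fell. Among them were Tcf21 (1.63), Isl1 (1.46), Meis1 (1.04) and Snai2 (0.99). Tcf21 and Isl1, of pharyngeal muscle and second heart field progenitors, overlapped between genotypes through the control Bar4, at 43.2 CPM for both. Without Bar22 none of the 37 passed. Twist1 did not pass, at 470 and 412 CPM in the run 1 controls and 420, 504 and 545 CPM in the mutants.

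Among Wnt genes, 16.7% of the canonical targets tested and 5.56% of the receptors and secreted modulators passed, beside 11.3% of all genes. Wnt5a, a ligand mostly of non-canonical signalling, was the 1 ligand tested and rose by 0.98. Of 12 canonical target genes, Lef1 rose by 0.72 and Id2 by 0.49, and 10 did not pass, among them Ccnd1 at -0.49 with an edgeR adjusted p of 0.0501. Ccnd2 stood at 392 and 366 CPM against 418, 356 and 355 CPM. Of 18 receptors and secreted modulators, the frizzled receptor Fzd4 rose by 1.07. The targets' median of 0.04 is near that of all genes. None of the targets rose without Bar22, without Bar23, without endothelial-marker members, by DESeq2's Wald test or with male share as a covariate, where their median was -0.58.

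Other signalling lists were as follows, beside 11.3% of all genes that passed. Of the genes tested, 30% passed in the FGF list and 30% in the Hedgehog list. In the retinoic acid list 16.7% passed, and in the BMP and TGF-beta list 7.14%. Of 10 FGF genes, Fgf8 (2.53), Spry2 (0.74) and Spred1 (0.57) rose and none fell. With male share as a covariate none of the 10 rose and their median went from 0.64 to 0.19, and without Bar22 or without Bar23 1 of 9 rose. Without the mutant Bar20 7 of 11 rose, with a median of 0.76. Fgf8, a growth factor of pharyngeal mesoderm, was at 4.48 and 6.16 CPM against 28.2, 13.5 and 47.5 CPM. Of 10 Hedgehog genes, Hhip (1.27), Ptch1 (0.61) and Gli3 (0.56) rose, and none did without Bar22, without Bar23, with male share as a covariate or by DESeq2's Wald test. In run 3 alone 3 of 4 Hedgehog genes were negative, with a median of -0.49. In retinoic acid genes Dhrs3 (2.26) and Cyp26c1 (1.36) rose of 12, and in 14 genes of BMP and TGF-beta signalling Grem1 (1.40) rose. None of 5 Notch genes passed. Of 27 listed Hox genes only 4 passed the filter on low counts and were tested. Of these 3 rose, among them Hoxb1 (1.80) and Hoxb4 (1.44). Hoxb4 was at 7.24 to 11.96 CPM in the fitted controls and at 21.2 to 33.6 CPM in the mutants. A gene this low can enter the test through its level in mutants, so 3 of 4 does not describe the whole list. Summed over all 27 genes, members held 58.9 to 88.8 CPM in the E9.5 controls and 127 to 209 CPM in the mutants fitted. Other mesenchyme of these samples held 88.9 to 566 CPM and 669 to 681 CPM. The sums were not tested.

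Genes of proliferation, matrix and guidance were mixed. Of 22 cell cycle genes, the inhibitor Cdkn1b rose by 0.96, and Ccne1 (-0.89), Plk1 (-0.62) and Mcm5 (-0.52) fell. None passed without Bar22, without Bar23, with male share as a covariate or with 10 cells from each sample. None passed either under the stricter rule, with 3 UMIs of Ebf1 and a higher limit on Foxl2 and Ebf2. Of 26 matrix genes, fibronectin Fn1 rose by 0.72 and Cthrc1 fell by 1.06. Of 28 genes of guidance and adhesion, Plxna2 (1.04) and Nrp2 (0.91) rose and Sema3a fell by 0.79. Apart from Wls, at -6.58, the 12 largest falls included Vtn (-2.73), Trmt61a (-2.39), Ikbkg (-2.26), Omd (-1.70), Rhoj (-1.65), Pde6h (-1.63), Aacs (-1.61), Wfdc1 (-1.51), Hsd17b7 (-1.47) and Slco3a1 (-1.40). The marker genes Crym and Parm1 did not pass, at -0.15 and -0.22. Of 94 genes named Rpl or Rps plus a digit, a set picked by name alone, 29 rose, 1 fell and 64 did not pass. Of all genes 6.44% were higher and 4.91% lower.

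Other mesenchyme of the same barcode samples was tested in the same way. In its own fit 1067 of 14565 genes passed (7.33%). Of 8759 genes tested in both kinds of cell, 993 passed in members and 865 in other mesenchyme, and 432 passed in both, which is 43.5% and 49.9%, with 432 in the same direction. The comparisons share their barcode samples. Ndufa4l2 rose by 3.22 in other mesenchyme and Ddit4 by 3.42, both past the threshold. There 20 of 26 low-oxygen genes and 12 of 18 of glucose uptake and glycolysis rose, and none of 22 of sterol synthesis and uptake passed, with a median of -0.37. In the test of the difference between members and other mesenchyme, 2 of 23 sterol genes passed, both lower in members.

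Where members and other mesenchyme differed in their genotype effect, an interaction term of class and genotype tested it. Of 15336 genes 112 passed (0.73%), 56 higher and 56 lower in members. Ebf2, which was used to choose the members, was among those higher. With the genes of the rule left out, 55 were higher and 56 lower. With the genes of the rule included, the split was 79 and 41 with DESeq2 size factors and 52 and 88 with no filter on low counts. Against all other cells it was 71 and 39. Of the 26 low-oxygen genes, 5 had a greater effect in members: Ier3 (1.24 more), Bnip3 (0.83), Ndufa4l2 (0.82), Egln1 (0.70) and P4ha1 (0.41). Over 11 alternatives P4ha1 passed in 3, Ndufa4l2 in 6, Ier3 and Bnip3 in 9 each and Egln1 in 10. Egln1 went from 79.0 and 69.8 CPM to 297, 306 and 352 CPM in members, and from 118 and 112 CPM to 316, 219 and 354 CPM in other mesenchyme. The mutant levels thus overlapped while the control levels were lower in members.

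Of 40 head mesoderm and mesenchyme factors tested for this difference, 5 were higher and 1 lower in members, and 34 did not pass. Isl1 rose in members (1.46) and stood at 0.09, not passing, in other mesenchyme, a difference of 1.26 (edgeR adjusted p = 0.0009). The differences were 1.15 for Tcf21, 0.75 for Foxd1, 0.69 for Tbx1, 0.76 for Meis1 and -0.49 for Prrx2. Foxd1 stood at -0.12 in members (edgeR adjusted p = 0.849) and fell by 0.94 in other mesenchyme (edgeR adjusted p = 0.00194). Tbx1 passed in neither kind of cell, at 0.38 in members and -0.38 in other mesenchyme. For Ptch1, the Hedgehog receptor and target, the difference was 0.75, with 96.6 and 97.1 CPM in control members and 148, 119 and 163 CPM in mutants. In other mesenchyme Ptch1 stood at 119 and 103 CPM in controls and at 98.0, 106 and 87.9 CPM in mutants, with overlap. Jun, a stress and growth factor gene, was at 110 and 97.4 CPM in control members and at 38.8, 77.3 and 40.5 CPM in mutants, against 130 and 124 and 123, 181 and 93.1 CPM in other mesenchyme, a difference of -1.10. Without Bar22 or Bar23 the count of passing genes was 20 and 16.

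**Figure D5:**
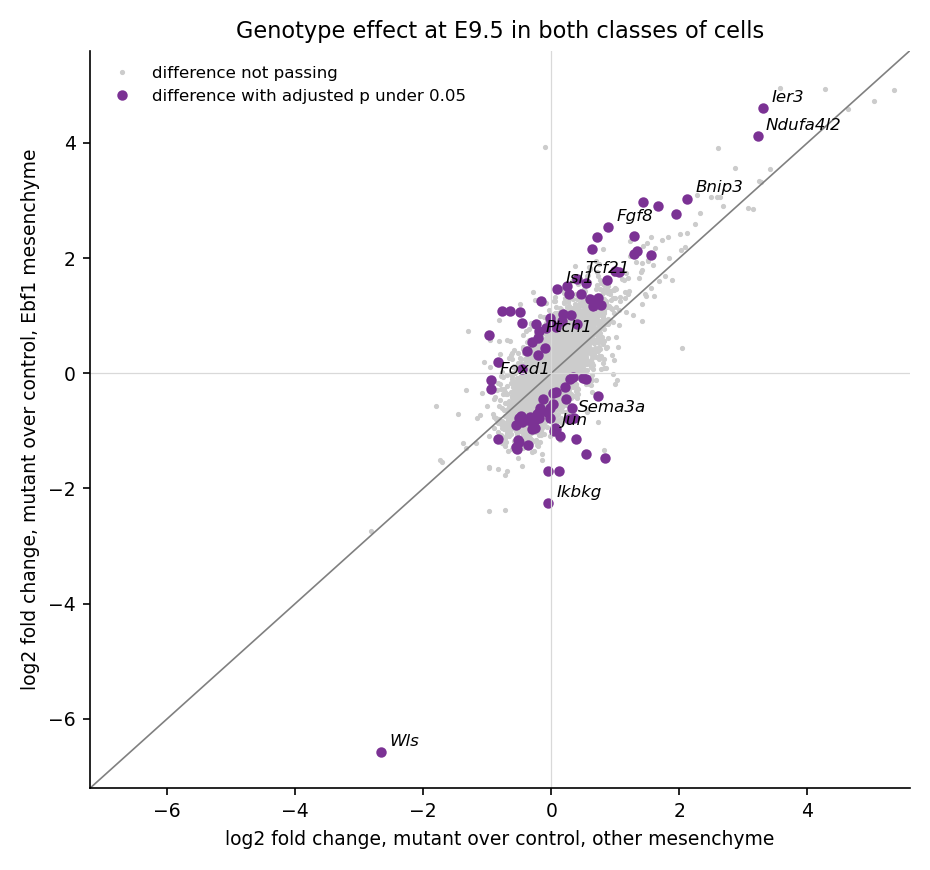
Log2 genotype difference at E9.5 in members (vertical) against that in other mesenchyme (horizontal), 1 point per gene tested in both, from 3 mutant and 5 control barcode samples, with the line of equal effect and the genes whose difference passed in purple. Bnip3 is at 3.03 in members and 2.12 in other mesenchyme, and Isl1 at 1.46 and 0.09.

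Between E8.5 and E9.5, with genotype and run as terms, 1 of 9579 genes passed (0.0104%), and 265 had an unadjusted p under 0.05. DESeq2's Wald test passed 9. All E8.5 samples are in run 2, where Bar4 is the 1 fitted sample of E9.5, so with run as a term the difference rests on Bar4 against Bar1 and Bar3, and the test assumes that Bar4 varies like the other samples. The gene was Rpl29, a ribosomal protein gene, which stood at 297 CPM in Bar3, 326 in Bar1 and at 989 to 1433 CPM in the E9.5 samples fitted. The stages did not overlap in the fitted samples, and the log2 difference was 2.04 ± 0.14 (SE) within run 2. Bar10, an E9.5 mutant with 8 members that was not fitted, held 415 CPM, and other mesenchyme showed 313 CPM in the same sample. Ribosomal protein genes have near-identical copies, and their part in this value was not tested.

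Among controls with at least 10 members the run with both stages held 1 sample of each, Bar3 and Bar4, so values are given with no test, for genes chosen after their values were seen. Tcf15 stood at 83.0 CPM in Bar3 and 16.7 CPM in Bar4, with 33.1, 33.1, 3.99 and 26.3 CPM in the other E9.5 controls. Ndufa4l2 stood at 7.56 CPM in Bar3 and 34.3 CPM in Bar4, and the other E9.5 controls held 5.93 to 15.9 CPM and overlapped E8.5.

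At E8.5 there was 1 mutant sample, Bar1 with 38 members, and values against Bar3 with 249 members are given with no test. Of the 22 low-oxygen genes 20 were higher in the mutant, 12 of them with exact 95% Poisson intervals that did not overlap, and 1 of the 2 lower ones was also apart. Of 17 glycolysis genes 15 were higher, 14 apart, and of 21 sterol genes 19 were lower, 4 apart. Over all 8761 genes the intervals were apart for 633 higher and 529 lower. Ndufa4l2 was at 81.8 CPM against 7.56, Bnip3 at 70.0 against 15.7 and Pgk1 at 2376 against 1113 CPM. The 9 endothelial markers summed to 692 CPM in Bar1 and 83.6 CPM in Bar3, and their part in these differences was not tested.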

How the data were processed

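RNA of sorted reporter-positive cells was counted as UMIs per gene and cell. The authors deposited 1 matrix of raw counts over 51923 genes for all 3 runs, mapped with kallisto and bustools per the labels. The submitters' processing notes name bustools 0.46.1, Cell Ranger and GRCm38, with no role given. A dense text table was not used here. Stage, genotype, run and barcode of each cell come from the authors' deposited table of cells. No cell types were given there. No doublet caller was run and no cell was removed as a doublet.

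Counts of the members were summed per barcode sample. Samples with at least 10 members entered edgeR 4.0.16 under R 4.3.3, with the filterByExpr filter, TMM scaling and the robust two-sided quasi-likelihood test. DESeq2 1.42.0 was an alternative. A gene passed at an adjusted p under 0.05. Shares were compared by exact permutation within runs in scipy 1.17.1 under Python 3.11.15. CPM is the count scaled to 1e+06 UMIs of the summed members. The fits were tested on simulated data. The members and the gene lists were chosen with earlier results of these data known. Named genes were the 12 largest rises and 12 largest falls among genes that passed, at 10 CPM or more in a group, list members that passed (up to 6) and up to 2 that did not. Leaving out the endothelial-marker members, run 3 alone, leaving out run 3, thinning to 10000 UMIs and the shares among mesenchyme were alternatives chosen after seeing the data. Some genes are not reported here.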

Additional observations from a re-analysis of the deposited data

Results flagged for a closer look

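In 2 of 28 groups of samples examined, 1 sample stood far from the others of its group, and chance gives about 1 in 20 such groups. Both were the control Bar7, which held 17 members. Uty was at 23.9 CPM there against 0.981 to 4.61 CPM in the other E9.5 controls, and 65.2% of the cells of Bar7 held a UMI of a Y-linked gene. Rhoj, a small GTPase gene of endothelium, was at 55.8 CPM in Bar7 against 28.6 to 34.9 CPM in the other controls.

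The genotype effect at E9.5 differed between members and other mesenchyme in edgeR's interaction test for the genes below. Values are the log2 effect in members minus that in other mesenchyme. It was higher in members for Osr1 (2.02), Arg1 (1.78), Saa2 (1.73), Meox2 (1.66), Smtnl2 (1.56), Pcp4 (1.55), Fgf8 (1.51), Trmt9b (1.42), Reep1 (1.42), Pgf (1.32), Isl1 (1.26) and Ier3 (1.24). It was lower for Wls (-4.07), Grhl2 (-3.83), Fos (-2.54), Ikbkg (-2.32), Egr1 (-2.29), Plac8 (-1.55), Mbd5 (-1.30), Alcam (-1.26), P3h1 (-1.22), Sema3a (-1.18), Olfr95 (-1.11) and Jun (-1.10). Osr1 was low in members, at 0 to 7.24 CPM in the controls fitted and at 9.40, 11.8 and 12.6 CPM in the mutants. For Arg1, which splits arginine, mutant members held 41.1, 113 and 95 CPM against 37.4 and 40.1 CPM in the run 1 controls, and its genotype effect alone did not pass. In other mesenchyme Arg1 was at 75.9, 122 and 131 CPM in mutants and 188 and 180 CPM in controls. Among members without endothelial markers, Arg1 was at 71.3 CPM in those with Ebf2 alone and at 8.90 CPM in those with Foxl2, and cells with Foxl2 made up 43.8%, 17.4% and 27.5% of them in the mutants and 37.3% and 39.2% in the controls, whose part in the difference was not tested. Fos, Egr1 and Jun are immediate early genes. Fos was at 76.4 CPM in members of Bar9 and at 12.8 CPM or less in the members of every other E9.5 sample fitted.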

How the results depend on the processing

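The count of genes that passed between genotypes, 994, became 268 with DESeq2's Wald test and 619 with the E8.5 samples added. It was 145 with male share as covariate (126 of the 994 among them). Under the stricter rule (3 UMIs of Ebf1 and 2 of Foxl2 and Ebf2 together) it was 261. It was 115 with 10 cells from each sample and 28 in run 3 alone. With no filter on low counts it was 1164, of which 32.4% were higher in mutants against 56.7%. Leaving out 1 sample gave 112 (Bar22) to 1341 (Bar20), with 134 without Bar23, 554 without Bar19 and 609 without Bar21. The count of differing effects, 112, ran from 16 (Bar23) to 285 (Bar21), with 20 without Bar22 and 177 without Bar20. The count between stages, 1, became 9 with DESeq2's Wald test, 52 in controls alone (where it rests on Bar3 and Bar4, 1 sample a stage), 8 with no filter and 4 with no run term, and ran from 1 to 6 (Bar3) when 1 sample was left out. The difference in share became -1.37 points after thinning to 5000 UMIs (exact permutation p = 0.0667) and -7.96 without run 3 (exact permutation p = 0.05, the smallest possible), and ran from -8.00 to -6.15 when 1 sample was left out. Among named genes the sign turned in 4 cases, all between genotypes. Of those that had passed, Gli3 was at -0.60 and Ptch1 at -0.38 in run 3 alone, and Meis1 at -0.19 with 10 cells from each sample. Crabp1 had not passed, at a log2 difference of 0.0548, and passed at -0.80 with male share as covariate. Sign changes of named genes that passed in neither setting are not counted. The cause of these changes was not tested. Over the alternatives, low-oxygen genes that rose numbered 7 to 21, with 0 or 1 fallen, glycolysis genes 9 to 17, with 0 fallen, and sterol genes that fell 0 to 14. Runs 2 and 3 together, and the stages without Bar4, could not be fitted. No paired analysis was possible because the barcode samples share no replicate numbers across genotypes.

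The genotype comparison has 2 controls in run 1, and small samples limit low genes: 3 UMIs in the members of Bar20 are 5.04 CPM, and in Bar8 28.6 CPM.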
